A study of Mus musculus with 26 samples.

Results

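The 4 members of the STEAP family (Steap1, Steap2, Steap3 and Steap4) and 5 genes of cellular iron handling (Tfrc, Fth1, Ftl1, Slc40a1 and Slc11a2) were measured by 15 probes and 24 spots of an array that held 27827 genes and 41174 probes. The 9 genes were picked from the array by gene name, with earlier results of these arrays known. It is not recorded which values led to them, so every level and difference below is a description, and each p-value only places a gene among all genes fitted. The samples were liver cells of Foxl1-CRE; RosaYFP mice aged 6 to 10 weeks, in which Cre recombinase under control of Foxl1 switches on a yellow fluorescent protein (YFP) that stays on in all descendants of a cell. Mice ate a diet with DDC, a compound that injures the bile ducts, and non-parenchymal cells without the leukocyte antigen CD45 were sorted by YFP. The groups were YFP-positive cells after 3, 7 and 14 days of DDC (4, 3 and 2 arrays), YFP-negative cells after 3, 7 and 14 days (3 arrays each), and unsorted non-parenchymal cells of chow-fed mice, called day 0 (2 arrays). DDC and the sort both separate the DDC groups from day 0, and the effects of diet, YFP sort and CD45 depletion cannot be told apart in that comparison. In all, 20 of 26 samples were used, and the other 6 are not analysed here.

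STEAP proteins are membrane proteins, of which STEAP2, STEAP3 and STEAP4 pass electrons from NADPH to ferric iron and cupric copper, while STEAP1 lacks the NADPH-binding part and reduces metals poorly on its own. In the transferrin cycle the transferrin receptor (Tfrc) brings ferric iron into endosomes, a STEAP reductase makes it ferrous, and Slc11a2 (DMT1) carries it into the cytosol. Ferritin, built of the heavy chain Fth1 and the light chain Ftl1, stores iron, and Slc40a1 (ferroportin) exports it. In the liver, macrophages recycle iron from red cells and hepatocytes store it, and DDC is known to block the insertion of iron into protoporphyrin.

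The sequences below belong to the probes of Steap1 and Steap4, the members with the widest differences between groups. Each has a pair of 60-base probes whose readings differ, and they are printed in lower case, 5′ to 3′. Probe 1, the brighter of each pair, is represented by its first 30 bases, and probe 2 by all 60. Steap1 probe 1 lies at chr5:5736369-5736428 of mm9 on the minus strand, at base 1103 of its transcript, and probe 2 at chr5:5740367-5740426, at base 616. Steap4 probe 1 lies at chr5:7981239-7981298 on the plus strand, at base 2165, while probe 2 spans chr5:7978532-7980313, at base 1180, so that its 60 bases match genome sequence on both sides of a gap. Steap2 is on the same chromosome, with probes at chr5:5682790-5682849 and chr5:5672170-5672229 on the minus strand. The reference tables are of another build, so exons and UTRs at these positions were not looked up.
Steap1 probe 1, first 30 bases: ctccaggttgtagaactactgtttgcacat
Steap1 probe 2: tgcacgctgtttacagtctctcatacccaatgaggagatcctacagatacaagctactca
Steap4 probe 1, first 30 bases: actgcaacaaaattggtttgaagtagctgt
Steap4 probe 2: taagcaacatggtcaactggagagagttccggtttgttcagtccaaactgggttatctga

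Levels are given as the log2 processed intensity minus the 75th percentile of the same array, so that a step of 1 is a doubling, and levels are compared between samples for 1 probe at a time. Spots well above background made up 81.0 to 91.2% of each array, and no spot was saturated. On these bulk samples, fewer cells of a type and less RNA per cell cannot be told apart. The labels do not say whether replicates came from separate mice, so p-values measure the spread between these samples. At day 3, YFP-positive replicate 4 stood apart from the other 3 of its group (correlation over probes 0.786 to 0.830), YFP-positive replicate 3 had a low level of the biliary keratin Krt19 (-1.47), and YFP-negative replicate 3 had a high one (1.46). The other YFP-positive arrays at day 3 had 2.26 to 4.48 and the other YFP-negative ones -3.23 and -1.86, so these 2 arrays go against their labels for this marker. Whether they were exchanged was not tested and no exchange was assumed, and day 3 values by fraction are those of the libraries as labelled. Ptprc, which encodes CD45, the antigen the sort selected against, was well above background on 19 of 20 arrays, YFP-positive day 3 replicate 4 being the exception. Its level was 1.46 and -1.81 on the day 0 arrays. On sorted arrays it ran from -7.55 on that exception to 4.38 on YFP-negative day 7 replicates 3 and 4. Some sorted arrays thus lay above both day 0 arrays and some below both.

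Steap1 was higher in every DDC group than at day 0, by 31.0-, 38.3- and 48.4-fold in YFP-positive cells at days 3, 7 and 14, and by 35.3-, 16- and 23.6-fold in YFP-negative cells. YFP-positive cells had levels of -0.57, -2.29, -0.85 and 0.59 at day 3, 0.69, -0.71 and -1.40 at day 7, and 0.27 and -0.55 at day 14. In YFP-negative cells the levels were -1.47, 0.42 and -0.73 at day 3, -1.32, -2.07 and -1.82 at day 7, and -1.80, -0.18 and -1.54 at day 14, and the 2 day 0 arrays had -6.36 and -5.11. All 18 DDC arrays lay above both day 0 arrays, with no overlap. Only 1.68% of the 26650 genes fitted had every DDC array above both day 0 arrays, and Steap1 and Steap4 were the 2 of the 9 members that did.

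The log2 difference of Steap1 from day 0 was 4.96 ± 0.78 (SE) at day 3, 5.26 ± 0.82 at day 7 and 5.60 ± 0.90 at day 14 in YFP-positive cells, with limma adjusted p-values of 0.0268, 0.0347 and 0.0203. In YFP-negative cells it was 5.14 ± 0.82, 4.00 ± 0.82 and 4.56 ± 0.82, with adjusted p-values of 0.0358, 0.137 and 0.0754. Steap1 was the 1 of 9 members called, at an adjusted p under 0.05, in the 3 YFP-positive groups and in YFP-negative cells at day 3. The share of all genes called there was 0.0525% for YFP-positive day 3, 0.0338% for day 7, 0.143% for day 14 and 0.045% for YFP-negative day 3. No member was called in YFP-negative cells at days 7 and 14, where 0.0488% and 0.0338% of genes were called. At an unadjusted limma p under 0.05 there were 3 and 2 of the 9 members, beside 8.63% and 11.8% of all genes. The median difference over all genes ran from -0.42 to -0.19 in the 6 comparisons with day 0, and quantile normalization moved it to between -0.13 and 0.11. The size of the Steap1 difference depended on the background correction: with normexp the log2 differences were 3.37, 3.57 and 4.09 in YFP-positive cells at days 3, 7 and 14 and 3.71, 2.56 and 3.03 in YFP-negative cells, none of them called. With the mean of both Steap1 probes they were 3.40, 4.97 and 5.81 in YFP-positive and 4.75, 2.44 and 4.07 in YFP-negative cells, none of them called.

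The call rests on few arrays. Without 1 of the 2 day 0 arrays, the other is assumed to vary like the other groups, from which the spread then comes. For YFP-positive cells at day 3 the adjusted p was 0.564 without day 0 replicate 1, 0.0537 without day 0 replicate 2, 0.0886 without YFP-positive replicate 1 and 0.0518 without YFP-positive replicate 4. At day 7 it was 0.383 without day 0 replicate 1, and 0.0892, 0.0878 and 0.0532 without YFP-positive replicates 1, 3 and 4. At day 14 it was 0.285 and 0.0567 without day 0 replicates 1 and 2, and 0.145 without YFP-positive replicate 1. For YFP-negative cells at day 3 it was 0.574 and 0.0518 without day 0 replicates 1 and 2, and 0.0611, 0.15 and 0.136 without YFP-negative replicates 1, 3 and 4. The log2 difference itself stayed between 3.37 and 6.22 in all 6 comparisons whichever single array was left out. With these 3 day 3 arrays (YFP-positive replicates 3 and 4 and YFP-negative replicate 3) left out together, a choice made after seeing the data, it was 4.30 for YFP-positive cells at day 3 (adjusted p = 0.0729) and 4.64 for YFP-negative cells (adjusted p = 0.127). Within a slide, the differences from day 0 were 5.79 and 4.25 at day 3 and 6.63 at day 14 in YFP-positive cells, and 4.89 at day 3 in YFP-negative cells. With slide as a fixed block the differences of the 4 called comparisons were 4.70, 6.08 and 6.10 in YFP-positive cells at days 3, 7 and 14 and 5.62 in YFP-negative cells at day 3, as large as without it or nearly so, with adjusted p-values of 0.12 or more.

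Among the DDC groups, Steap1 levels overlapped in every pair but 1, YFP-positive day 14 (0.27 and -0.55) lying above YFP-negative day 7 (-1.32, -2.07 and -1.82); that pair was not tested. In order of their means, day 0 was lowest (-5.74 ± 0.89, SD), followed by YFP-negative day 7 (-1.74 ± 0.38), YFP-negative day 14 (-1.17 ± 0.87), YFP-positive day 3 (-0.78 ± 1.18), YFP-negative day 3 (-0.59 ± 0.95), YFP-positive day 7 (-0.48 ± 1.07) and YFP-positive day 14 (-0.14 ± 0.57). Only the step from day 0 to the next group exceeded the spread, and all later neighbours overlapped. Over the mean of days the difference of YFP-positive from YFP-negative cells was 0.70 ± 0.43 with a 95% interval of -0.22 to 1.62 (adjusted p = 0.363).

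Steap1 probe 2 was dim, being well above background on 11 of 20 arrays and on neither day 0 array. Its levels were -9.01, -9.35, -4.83 and -9.21 at day 3, -3.23, -7.67 and -4.85 at day 7, and -3.65 and -4.16 at day 14 in YFP-positive cells. In YFP-negative cells they were -6.38, -6.19 and -4.13 at day 3, -7.31, -10.06 and -9.80 at day 7, and -8.54, -3.98 and -6.56 at day 14, against -9.62 and -10.26 at day 0. It lay above day 0 without overlap in 5 of 6 groups, but near the day 0 level on 3 of 4 YFP-positive arrays at day 3 and on 2 of 3 YFP-negative arrays at day 7. Since day 0 was not well above background, the difference is a bound, the bright group's mean over, on each day 0 array, the higher of the probe's own signal and the lowest signal well above background: at least 5.46-fold and at least 13.9-fold higher in YFP-positive cells at days 7 and 14, and at least 4.38-fold and at least 2.53-fold higher in YFP-negative cells at days 3 and 14. The adjusted p of these, over 39595 probes, was 0.288, 0.172, 0.759 and 0.474.

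**Figure D1:**
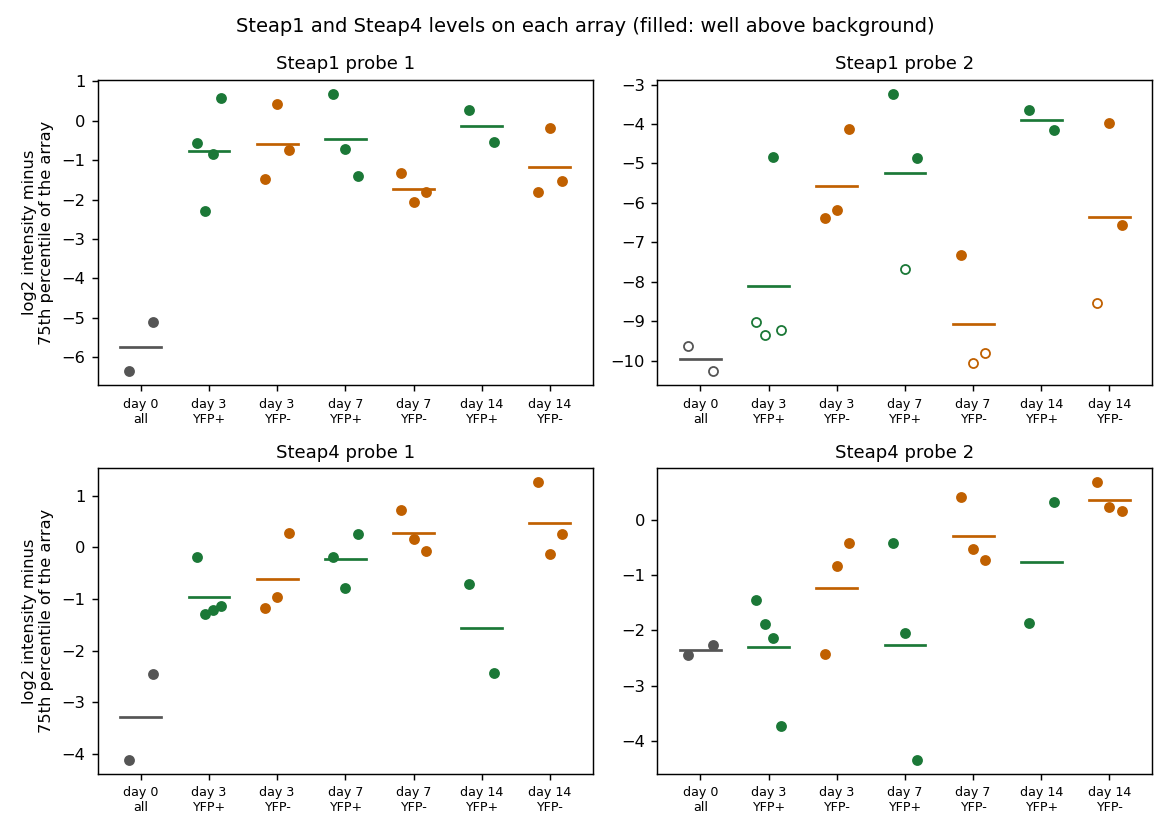
Levels of the 2 probes each of Steap1 and Steap4 on each array (y axis, log2 intensity minus the 75th percentile of the array) by group (x axis, day 0 and then YFP-positive beside YFP-negative cells at days 3, 7 and 14). Points are arrays, filled where well above background and open where not, and bars are group means. Probe 1 of each gene lies above both day 0 arrays on all 18 DDC arrays. Probe 2 of Steap4 overlaps day 0 in YFP-positive cells at days 3 and 7 and in YFP-negative cells at day 3.

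Steap4, a metalloreductase that in mouse adipocytes is known as a protein induced by tumour necrosis factor, was higher in all 6 DDC groups than at day 0 by its brighter probe, yet it passed the test in none. YFP-positive cells had -0.18, -1.29, -1.22 and -1.14 at day 3, -0.18, -0.78 and 0.26 at day 7, and -0.70 and -2.43 at day 14. YFP-negative cells had -1.18, -0.95 and 0.28 at day 3, 0.73, 0.16 and -0.07 at day 7, and 1.26, -0.12 and 0.26 at day 14, and the day 0 arrays had -4.11 and -2.45. One YFP-positive array at day 14 lay just above the upper day 0 array, and the other DDC arrays were at -1.29 or higher. The log2 difference from day 0 was 2.32 ± 0.63, 3.05 ± 0.66 and 1.72 ± 0.73 in YFP-positive cells at days 3, 7 and 14, with adjusted p-values of 0.27, 0.121 and 0.386. In YFP-negative cells it was 2.67 ± 0.66, 3.55 ± 0.66 and 3.75 ± 0.66, with adjusted p-values of 0.35, 0.0833 and 0.0697. Within a slide, it was 3.93 and 1.23 at day 3 and 3.41 at day 14 in YFP-positive cells and 2.93 at day 3 in YFP-negative cells. Without day 0 replicate 2 the YFP-negative day 14 difference was 4.58 (adjusted p = 0.0281), a value that is larger by construction, since that array had the higher of the 2 day 0 levels, and whose day 0 spread is assumed from the other groups.

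Steap4 probe 2 differed from probe 1. It read -1.44, -1.88, -2.14 and -3.74 at day 3, -0.42, -2.04 and -4.35 at day 7, and -1.86 and 0.34 at day 14 in YFP-positive cells. The YFP-negative arrays read -2.43, -0.83 and -0.42 at day 3, 0.42, -0.53 and -0.72 at day 7, and 0.69, 0.25 and 0.16 at day 14, and the day 0 arrays -2.44 and -2.27. With this probe YFP-positive cells at days 3 and 7 overlapped day 0, with differences of 0.06 ± 0.93 and 0.09 ± 0.98, while at day 14 the difference was 1.59 ± 1.07. In YFP-negative cells it was 1.13 ± 0.98, 2.08 ± 0.98 and 2.73 ± 0.98, without overlap at days 7 and 14 and with adjusted p-values of 0.456 or more.

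Between the sorted fractions, Steap4 had the smallest p of the members at day 14 and over the mean of days. At day 14 the YFP-positive arrays (-0.70 and -2.43) lay below all 3 YFP-negative arrays (-0.12 to 1.26), a difference of -2.03 ± 0.66 with an adjusted p of 0.341. Over the mean of days it was -0.96 ± 0.35 (adjusted p = 0.141), and probe 2 gave -1.40 ± 0.52 (adjusted p = 0.153). Within a slide, the YFP-positive minus YFP-negative difference was 1.0 at day 3 on 1 slide, and -1.51 and 0.33 at day 7 on another 2 slides, so its sign varied. The mean level of 10 stellate cell and fibroblast markers, the collagen gene Col1a1 among them, was -3.56 to -1.20 in YFP-positive and 1.94 to 3.02 in YFP-negative cells at day 14. The part of these markers in the Steap4 difference was not tested.

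No member was called between YFP-positive and YFP-negative cells by limma, with 0.642% of all genes called over the mean of days, 0% at days 3 and 7, and 0.0225% at day 14. At an unadjusted p under 0.05 the count of members was 1 over the mean of days, 0 at days 3 and 7 and 1 at day 14, each time Steap4. Of all genes, 21.4% had such a p over the mean of days, 7.85% at day 3, 5.29% at day 7 and 12.3% at day 14. The medians of the 9 differences were 0.16 over the mean of days, 0.00 at day 3, 0.40 at day 7 and -0.01 at day 14, beside 0.06, 0.15, 0.00 and 0.13 over all genes. Neither did day 14 against day 3 call a member, with 0.0263% of genes called in YFP-positive and 0% in YFP-negative cells and 0% for the difference between the fractions. In those 3 comparisons no member had an unadjusted p under 0.05, beside 6.35%, 3.69% and 2.86% of all genes. 

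**Figure D2:**
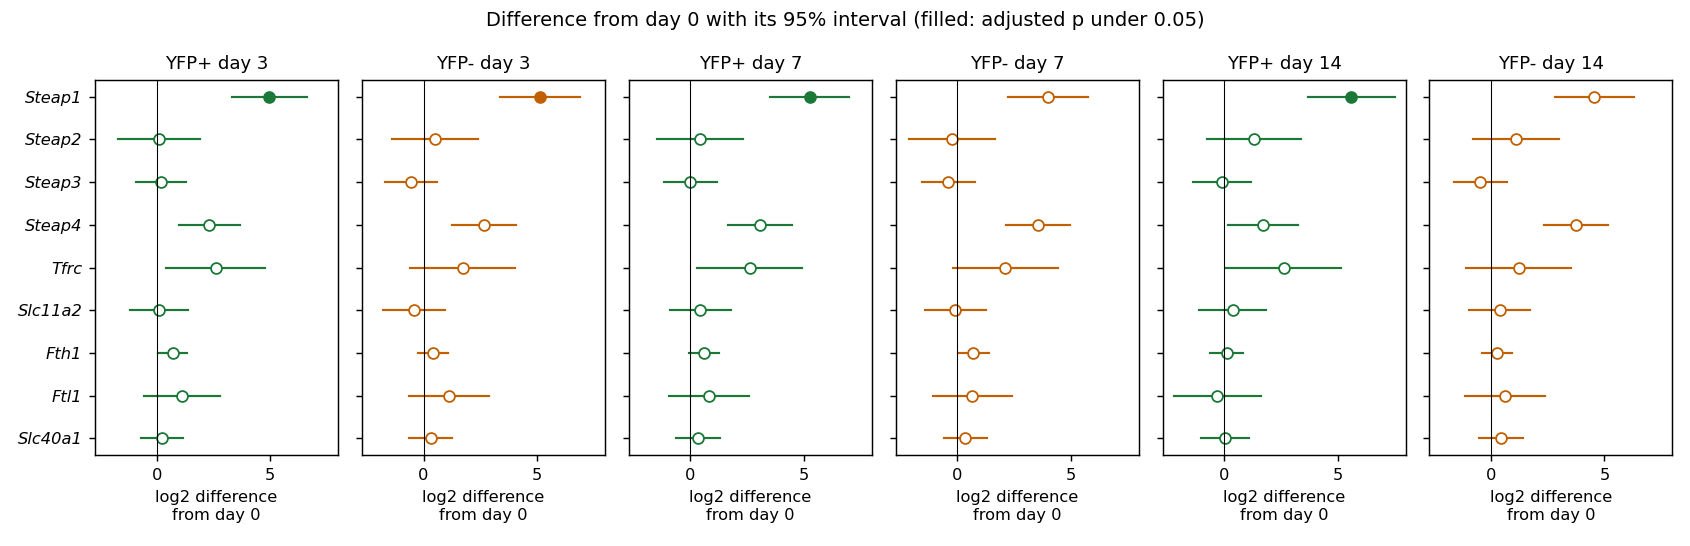
Log2 difference of each member from day 0 (x axis) with its 95% interval, for the 6 DDC groups (panels), brightest probe of each gene (y axis). Filled points have an adjusted p under 0.05. Steap1 is filled in 4 of 6 panels, and the intervals of Steap4 lie above 0 in all 6.

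Steap2, a reductase of iron and copper, had 2 probes, both well above background on all arrays. By probe 1 the levels were 0.62 and -0.20 in YFP-positive cells at day 14, against -0.52 and -1.70 at day 0, a difference of 1.32 ± 0.97 (adjusted p = 0.656) without overlap. The other 5 DDC groups overlapped day 0, and YFP-positive cells at day 3 alone spanned -2.94 to 0.62. Probe 2 read -0.74 and -0.41 in YFP-positive cells at day 14, against -2.68 and -2.27 at day 0, a difference of 1.89 ± 0.67 (adjusted p = 0.278). It lay above day 0 without overlap in 4 of 6 groups, and in both fractions both probes had their largest difference from day 0 at day 14. Although Steap2 probes lie on the same chromosome as those of Steap1, the levels of both genes correlated only weakly over the 20 arrays (r = 0.16), whereas Steap1 and Steap4 had r = 0.53.

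Steap3, known as the iron reductase of red cell precursors, did not separate any DDC group from day 0 by its brighter probe. Probe 1 ranged from -6.07 to -3.67 over all arrays, and every DDC group overlapped day 0 (-5.38 and -5.04). In YFP-positive cells it was 0.52 ± 0.29 higher than in YFP-negative cells over the mean of days (adjusted p = 0.315), while probe 2 differed by -2.24 ± 0.97 (adjusted p = 0.211). The probes disagreed in sign, and probe 2 was well above background on 14 of 20 arrays and on neither YFP-positive array at day 14. These probes share a run of 15 bases. Probe 1 has no mm9 position in the array annotation, whereas probe 2 lies at chr1:122123825-122123884. Whether probe 1 reads Steap3 was not tested. The highest probe 1 level was that of YFP-positive day 3 replicate 4, the array that stood apart.

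Tfrc, the transferrin receptor, was 6.07- to 6.20-fold higher in YFP-positive cells than at day 0, without passing the test. YFP-positive levels were 1.86, 1.85, 0.26 and 2.73 at day 3, 2.52, 1.78 and 0.73 at day 7, and 1.73 and 1.67 at day 14. The YFP-negative levels were 0.11, 1.22 and 1.07 at day 3, -0.13, 1.68 and 2.03 at day 7, and -1.57, 2.93 and -0.49 at day 14, and day 0 had -0.17 and -1.69. All 9 YFP-positive arrays were above both day 0 arrays, as were YFP-negative arrays at days 3 and 7, while at day 14 the YFP-negative arrays spread across the whole range. In YFP-positive cells the differences were 2.60 ± 1.03, 2.61 ± 1.09 and 2.63 ± 1.19, with adjusted p-values of 0.443, 0.39 and 0.422. The YFP-negative differences were 1.73 ± 1.09, 2.12 ± 1.09 and 1.22 ± 1.09, with adjusted p-values of 0.747, 0.585 and 0.674. The 10 spots of the Tfrc probe on an array differed by an SD of 0.04 to 0.20. The SD between replicates was 0.60 to 2.35 in 6 of the 7 groups and 0.04 in YFP-positive cells at day 14, where the spots of an array (SD 0.08 and 0.12) varied more than the 2 arrays.

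Tfrc levels followed those of genes of cell division. They correlated with the mean level of 11 cell cycle genes at r = 0.76 over 20 arrays, and at r = 0.64 after the group means were taken off both. The cell cycle mean was -0.84 to 0.47 on YFP-positive arrays, -1.75 to -0.02 on YFP-negative arrays and -2.03 to -1.92 on day 0 arrays, with Aurkb, a mitotic kinase, not well above background on either day 0 array. For Steap1 the same correlation was 0.69 over the arrays and 0.33 after group means were taken off, and for Steap4 0.41 and -0.08. With the mean of 10 erythroid markers Tfrc had r = 0.02 over the arrays and 0.52 after group means were taken off. The highest Tfrc level (2.93, YFP-negative day 14 replicate 2) was on the array with the highest erythroid mean (2.19). Points of 1 array share its RNA and its scaling, and the part of dividing or erythroid cells in these differences was not tested.

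**Figure D3:**
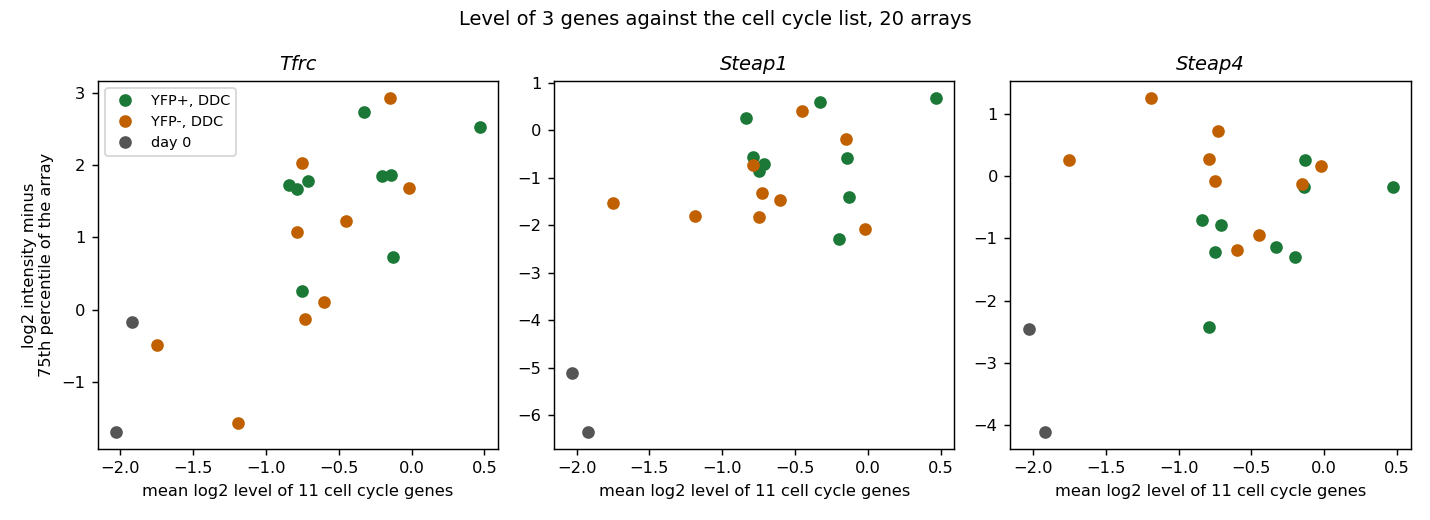
Level of Tfrc, Steap1 and Steap4 (y axis, log2 intensity minus the 75th percentile of the array) against the mean log2 level of 11 cell cycle genes (x axis) on 20 arrays, coloured by group. The 2 day 0 arrays are lowest on the x axis (-2.03 and -1.92), and Tfrc tends to be higher on arrays further to the right.

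Slc11a2, the DMT1 transporter, did not differ from day 0 beyond the spread of the arrays for the brightest of its probes. By its brightest probe the differences from day 0 were 0.11 ± 0.60, 0.43 ± 0.64 and 0.37 ± 0.70 in YFP-positive and -0.42 ± 0.64, -0.08 ± 0.64 and 0.38 ± 0.64 in YFP-negative cells. All 6 comparisons overlapped, since the day 0 arrays themselves were at -0.63 and 0.73. The widest 95% interval of the 6 ran from -1.11 to 1.85, in YFP-positive cells at day 14. It gives the differences that these arrays leave possible there and is not a limit of detection. In YFP-negative cells day 14 lay above day 3 without overlap, at -0.06, 0.43 and 0.94 against -0.36, -0.68 and -0.08 (difference 0.81 ± 0.57, limma adjusted p = 1). Its other 2 probes overlapped in that comparison. Against day 0, probe 2 overlapped in every group. Probe 3 read -3.96, -3.71 and -3.23 in YFP-negative cells at day 7, below both day 0 arrays (-2.76 and -2.64). In the other groups probe 3 overlapped day 0.

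Fth1, the ferritin heavy chain, had the smallest spread within groups of the members, and no difference passed the test. YFP-positive levels were 5.89, 5.92, 5.76 and 6.49 at day 3, 5.82, 5.97 and 5.91 at day 7, and 5.53 and 5.31 at day 14. In YFP-negative cells they were 5.69, 5.78 and 5.69 at day 3, 5.87, 6.02 and 6.14 at day 7, and 5.64, 5.50 and 5.57 at day 14, with 5.62 and 4.99 at day 0. Both fractions lay above day 0 without overlap at days 3 and 7 and overlapped it at day 14. The differences from day 0 were 0.71 ± 0.30, 0.60 ± 0.31 and 0.11 ± 0.34 in YFP-positive and 0.41 ± 0.31, 0.71 ± 0.31 and 0.27 ± 0.31 in YFP-negative cells, with adjusted p-values of 0.457 or more. Day 14 lay below day 3 without overlap in both fractions, by -0.60 ± 0.30 and -0.15 ± 0.28 (adjusted p = 0.826 and 1).

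Ftl1, the ferritin light chain, spread more widely, from 1.57 to 5.05, and overlapped day 0 (3.04 and 1.92) in all 6 groups. Its differences from day 0 ran from -0.30 ± 0.91 in YFP-positive cells at day 14 to 1.13 ± 0.83 in YFP-negative cells at day 3. RefSeq names 3 pseudogenes after the light chain and 2 after the heavy chain, so both are uncertain where near-identical copies share signal. The probe named for the copy Ftl2 followed Ftl1 at r = 0.958 over the arrays, although the longest run that both probes share is 7 bases.

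Slc40a1, ferroportin, had the lowest share of its variance between groups. Levels were 4.43, 3.87, 4.13 and 2.88 in YFP-positive cells at day 3, 3.65, 4.25 and 3.83 at day 7 and 3.82 and 3.40 at day 14, and the 9 YFP-negative arrays lay between 3.62 and 4.34, with 3.91 and 3.26 at day 0. All groups overlapped, and the differences from day 0 ran from 0.03 ± 0.49 to 0.43 ± 0.45. Its level followed the mean of 16 macrophage markers at r = 0.60 over the arrays and 0.69 after group means were taken off. It followed other marker lists as closely, with 0.67 and 0.69 for neutrophil, 0.47 and 0.66 for lymphoid and 0.39 and 0.61 for erythroid markers. The lowest array, YFP-positive day 3 replicate 4, also had the lowest macrophage mean (-2.94), and the part of any of these cell types in the Slc40a1 level was not tested.

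**Figure D4:**
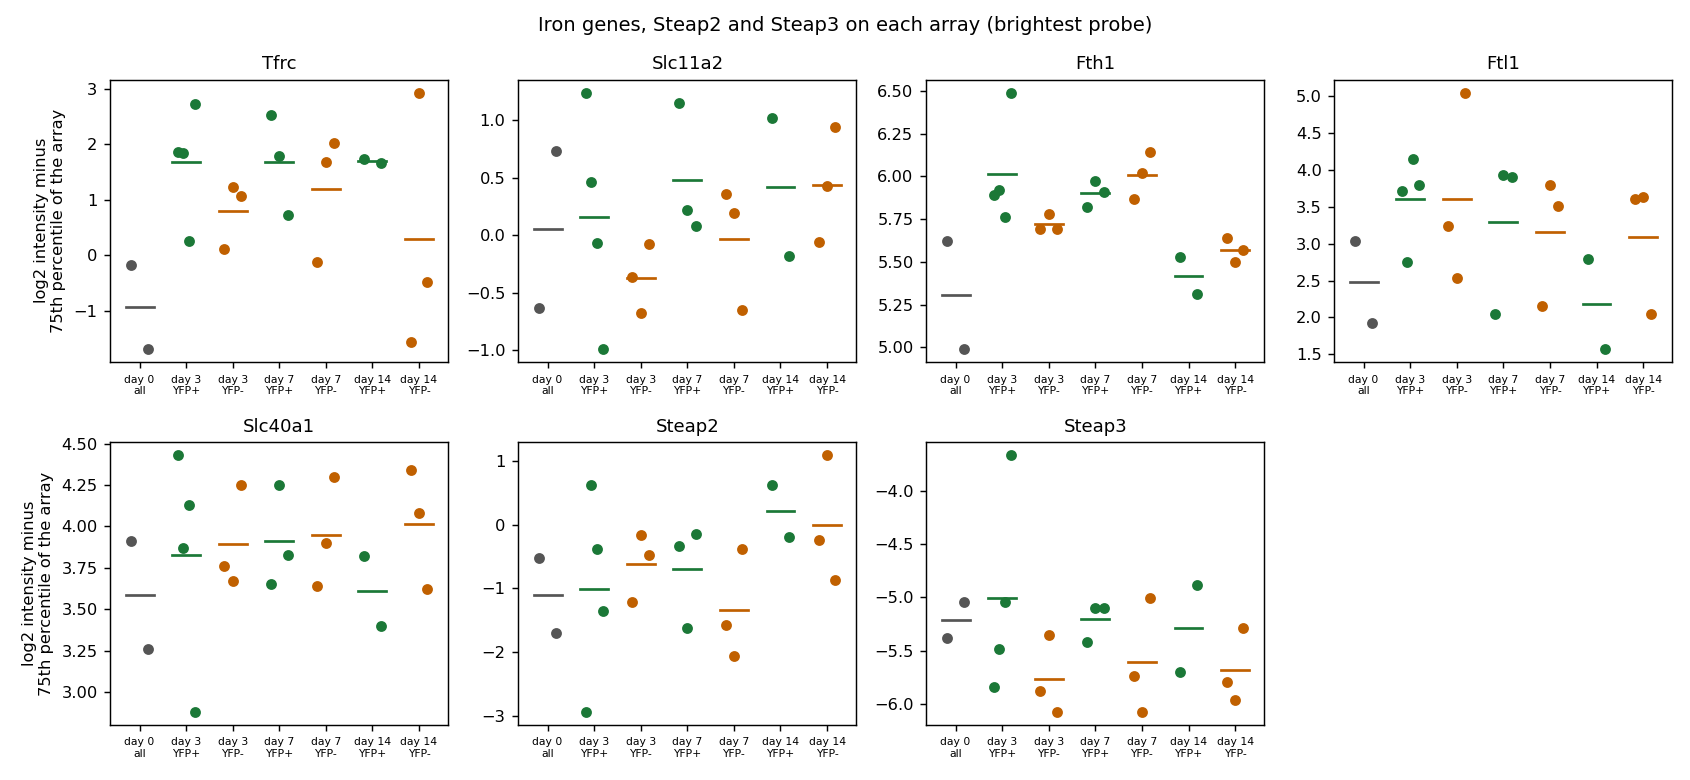
Levels of Tfrc, Slc11a2, Fth1, Ftl1, Slc40a1, Steap2 and Steap3 (brightest probe) on each array (y axis, log2 intensity minus the 75th percentile of the array, each panel with its own scale) by group (x axis). Points are arrays and bars group means. Tfrc is above day 0 on all 9 YFP-positive arrays, and Fth1 is lower at day 14 than at day 3 in both fractions.

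The share of the variance that lay between the 7 groups put the members in order. It was 80.8% for Steap1, 76.8% for Steap4, 67.9% for Fth1 and 39.5% for Tfrc, beside a median of 38.0% over all genes. Steap2 (27.7%), Ftl1 (27.5%), Steap3 (27.1%), Slc11a2 (21.1%) and Slc40a1 (13.1%) were below that median. The residual SD within groups was smallest for Fth1 (0.21) and largest for Tfrc (1.25).

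The authors' deposited table, which compares each sorted group with day 0 by a method it does not state, lists probe 1 of Steap1 and of Steap4 as higher. In the authors' deposited table the share of 40022 probes with a false discovery rate under 5% was 1.79, 10.2 and 16.2% for YFP-positive cells at days 3, 7 and 14 and 3.13, 3.38 and 1.39% for YFP-negative cells. For Steap1 probe 1 the authors' deposited table gives 20.8- to 37.2-fold in YFP-positive cells with false discovery rates of 0.74 to 3.04%, and 12.4- to 22.5-fold in YFP-negative cells with 1.49 to 5.15%. For Steap4 probe 1 the authors' deposited table gives 5.60- to 9.41-fold in YFP-positive cells (1.64 to 3.77%) and 7.45- to 20.5-fold in YFP-negative cells (0.90 to 3.27%). Probe 2 varied more: for Steap1 the authors' deposited table gives 2.39-, 21.4- and 28.2-fold in YFP-positive cells (100, 1.12 and 0.60%) and 13.3-, 2.60- and 8.62-fold in YFP-negative cells (1.06, 35.4 and 11.1%) at days 3, 7 and 14. For Steap4 probe 2 the authors' deposited table gives 1.79-, 2.37- and 6.56-fold in YFP-positive cells (31.0, 26.3 and 1.60%) and 3.15-, 9.83- and 11-fold in YFP-negative cells (7.82, 1.02 and 2.85%). Over the 10 Tfrc spots the authors' deposited table has 6.38- to 8.66-fold in YFP-positive cells (0.74 to 3.33%) and 2.64- to 5.46-fold in YFP-negative cells (2.58 to 35.1%). For Steap2 probes 1 and 2 the authors' deposited table gives 5.96- and 6.68-fold in YFP-positive cells at day 14 (2.67% each). In the other groups the Steap2 false discovery rates there were 10.6% or more. For Fth1 the authors' deposited table gives 1.59-fold in YFP-positive cells at day 7 (4.96%), and rates of 8.6% or more elsewhere. Which arrays entered these values is not given in the sources used here.

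Because Steap1 and Steap4 were the members above day 0 on every DDC array, the 250 bases before their RefSeq starts (GRCm38.p6) are shown, searched on both strands for 4 motifs, chosen after the levels were known: AP-1 (TGANTCA), NF-kappaB (GGGA and CC with any 4 bases between them), the antioxidant response element (TGACNNNGC) and STAT (TTCNNNGAA). Capitals mark matches. The Steap4 stretch, chr5:7960222-7960471 on the plus strand, held 2 NF-kappaB matches, 250 bases before the start on the gene's strand and 73 bases before it on the other, and 1 STAT match at 116 bases, none overlapping. The Steap1 stretch, chr5:5749318-5749567 on the minus strand, held none of the 4. Among 32851 promoters, 17.6% hold the NF-kappaB letters, 7.02% STAT, 6.75% AP-1 and 10.2% the antioxidant response element. Promoters were found for 7 of 9 members, 14 in all, of which 5 hold the NF-kappaB letters (Steap2, Steap3, Steap4 and Fth1), 2 STAT (Steap2 and Steap4), 1 the antioxidant response element (Steap2) and 0 AP-1. The Steap1 stretch has 70.8% G and C and the Steap4 stretch 58.4%, with a median of 52.4% over all promoters.
Steap4: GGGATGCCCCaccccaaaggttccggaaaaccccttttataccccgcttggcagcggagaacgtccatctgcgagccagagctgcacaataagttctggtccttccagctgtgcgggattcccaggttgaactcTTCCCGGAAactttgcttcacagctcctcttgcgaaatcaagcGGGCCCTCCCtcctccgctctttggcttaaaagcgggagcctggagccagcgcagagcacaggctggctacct
Steap1: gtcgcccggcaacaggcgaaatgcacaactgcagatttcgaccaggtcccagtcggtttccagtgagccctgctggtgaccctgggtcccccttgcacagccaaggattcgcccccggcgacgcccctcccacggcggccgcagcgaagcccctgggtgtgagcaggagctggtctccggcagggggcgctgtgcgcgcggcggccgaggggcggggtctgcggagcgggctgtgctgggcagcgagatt

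Other genes of iron and copper handling, 55 measured in 7 lists, gave no call in any of the 13 comparisons. Of 9 measured genes of heme iron recovery, 7 and 8 had positive differences from day 0 in YFP-positive cells at days 3 and 7 (medians 0.96 and 0.84) and 7 and 8 in YFP-negative cells (medians 1.56 and 1.14), where the medians of all genes were -0.19, -0.35, -0.41 and -0.36. At day 14 it was 5 of 9 in YFP-positive cells (median 0.01) and 6 of 9 in YFP-negative cells (median 0.72). Macrophage markers, which share Cd163 with this list, were also more often positive at days 3 and 7 than at day 14. In YFP-positive cells 10, 15 and 3 of 16 were positive at days 3, 7 and 14 (medians 0.73, 1.78 and -1.47). In YFP-negative cells it was 16, 16 and 4 of 16 (medians 2.07, 1.39 and -0.78), none called. Neutrophil markers had medians of 1.76, 2.83 and -1.24 in YFP-positive and 2.62, 3.69 and 0.76 in YFP-negative cells. Lymphoid markers had medians of 0.20, 0.30 and -0.72 in YFP-positive and 0.75, 1.16 and -1.59 in YFP-negative cells. The part of any of these cell types in the heme iron recovery values was not tested. Hmox1, heme oxygenase, was the first gene of the heme iron recovery list. At days 3, 7 and 14 it differed from day 0 by 1.79 ± 0.96, 2.17 ± 1.01 and 0.97 ± 1.11 in YFP-positive cells. In YFP-negative cells it differed by 2.67 ± 1.01, 2.29 ± 1.01 and 1.60 ± 1.01. The adjusted limma p-values of Hmox1 were 0.431 or more. In the list of iron sensing and hepcidin, 11 and 12 of 13 genes had positive differences of day 14 from day 3 in YFP-positive and YFP-negative cells (medians 0.68 and 0.61, beside -0.05 and -0.06 over all genes). In the same comparisons biliary markers had medians of 0.89 and 0.69 and hepatocyte markers of 0.61 and 0.96. Macrophage, neutrophil and lymphoid markers had negative medians in both. The part of these cell types in the iron sensing values was not tested. Hamp, which encodes the iron hormone hepcidin and is made mostly by hepatocytes, had a difference from day 0 of 4.72 ± 1.87 in YFP-negative cells at day 7 (adjusted p = 0.523) and of 3.45 ± 2.05 in YFP-positive cells at day 14 (adjusted p = 0.56). Hamp values of the other groups are not given here, and no Hamp difference was called.

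Iron uptake had 3 or 4 of 9 measured genes positive against day 0 in each group, and Trf, transferrin, differed by 1.76 ± 0.62, 1.74 ± 0.65 and 2.87 ± 0.71 in YFP-positive cells (adjusted p = 0.144 or more). Iron storage and delivery had 2 to 4 of 6 positive, with the iron chaperone Pcbp1 at -0.10 ± 0.26, -0.09 ± 0.28 and -0.08 ± 0.30 in YFP-positive cells. Of the 2 measured genes of iron export, the ferroxidase Heph differed by -1.10 ± 0.68, -1.50 ± 0.72 and -1.40 ± 0.78 in YFP-positive cells. The mitochondrial list had 3 to 6 of 8 positive, and its iron importer Slc25a37 differed by -2.03 ± 0.56, -2.08 ± 0.59 and -2.09 ± 0.65 in YFP-positive cells (adjusted p = 0.21 or more). Copper handling had 4 or 5 of 8 positive, and the copper importer Slc31a1 differed by 0.35 ± 0.30, 0.26 ± 0.31 and 0.09 ± 0.34. The erythroid markers, whose genes include hemoglobin, had a mean of -3.58 to -0.02 on YFP-positive arrays and of -1.55 to 1.51 at day 0, and the 9 measured hepatocyte markers one of -0.88 to 1.90 on YFP-positive arrays and -0.49 to -0.32 at day 0. Their part in the values of these lists was not tested.

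**Figure D5:**
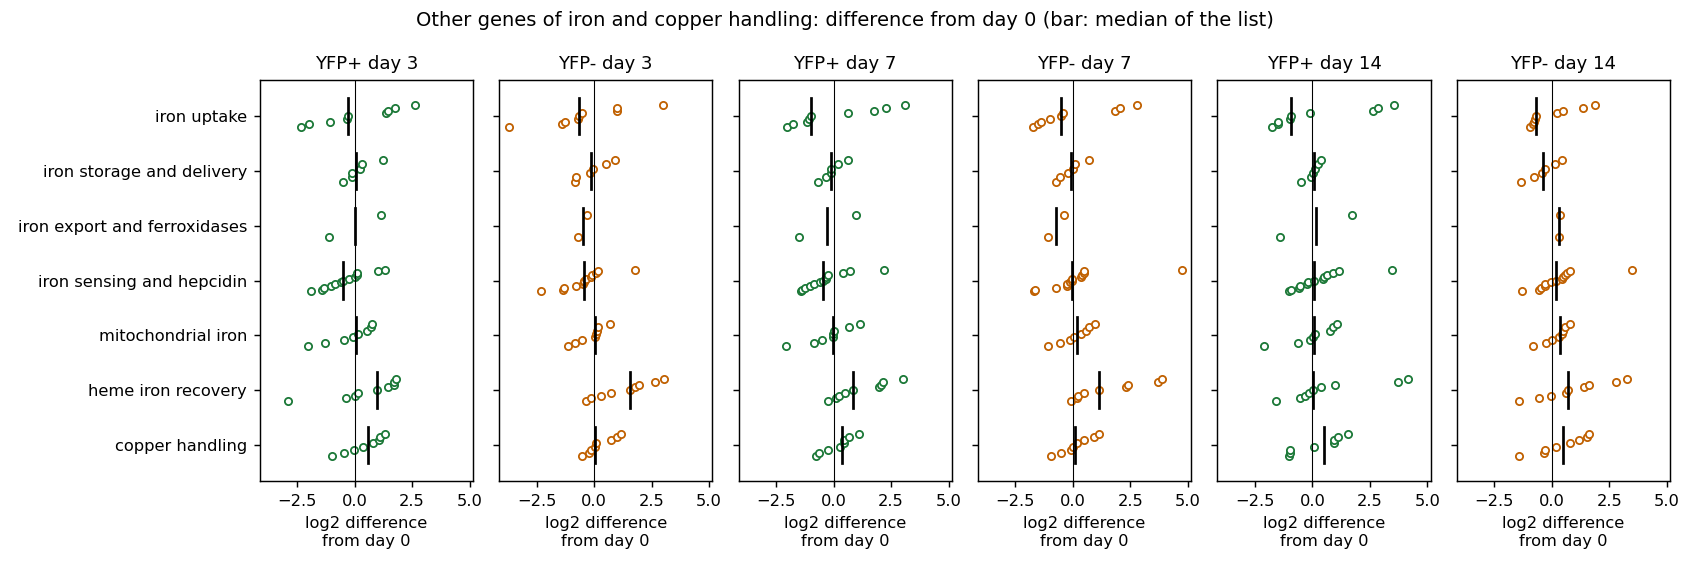
Log2 difference from day 0 (x axis) of the measured genes of 7 lists of iron and copper handling (y axis), for the 6 DDC groups (panels). Points are genes, none of which passed the test, and bars are list medians. The heme iron recovery median is 0.84 to 1.56 at days 3 and 7, and 0.01 in YFP-positive and 0.72 in YFP-negative cells at day 14. Medians of macrophage, neutrophil and lymphoid markers, not plotted, were also higher at days 3 and 7 than at day 14.

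The genes whose levels were most like those of each member over the 20 arrays were taken from 15729 genes well above background on at least 10 arrays. Steap1 was closest to Nhp2 (r = 0.85), Hnrnpd (0.845) and C1qbp (0.836). Steap4 was closest to Gsta2 (0.815), Pdlim2 (0.776) and Gsta1 (0.746), of which Gsta1 and Gsta2 encode glutathione transferases. Tfrc was closest to Cdt1 (0.872), Uhrf1 (0.852) and Cks1b (0.826), genes of DNA replication and the cell cycle. Fth1 was closest to Eef1b2 (0.855), Glrx3 (0.854) and Erp29 (0.843), and Ftl1, after Ftl2, to Stard3nl (0.828) and Tmem14c (0.819). For Slc40a1 the genes were Pitpna (0.862), Metrnl (0.825) and Hcst (0.816), and for Slc11a2 Tmem201 (0.791), Hnrnpr (0.766) and Topbp1 (0.745). Steap2 was closest to Tsen54 (0.717), Kctd17 (0.712) and Psg19 (0.71), and Steap3 to Fam83c (0.891), Olfr767 (0.891) and Htr1f (0.881). All 20 points of each r share their arrays and their scaling.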

How the data were processed

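The members and the gene lists were chosen with earlier results of these data known. Each of 20 samples had 1 single-colour array, hybridised with amplified, Cy3-labelled cDNA per the labels' protocols. The scanner's processed signal is an intensity, spatially and multiplicatively detrended per the file headers, and was scaled between arrays here. The mean signal and local background used in one alternative are intensity values too, per the file headers. Headers name Feature Extraction 10.5.1.1, while the submitters' processing notes name Agilent Feature Extraction 9.53. The authors' deposited table holds a signed score, a linear fold change against day 0, and a false discovery rate in percent, by a method not given in the sources used here.

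Control and outlier spots were left out, spots of a probe averaged, and log2 values taken relative to each array's 75th percentile. The fit took the 39595 probes that passed the well-above-background call on 2 or more arrays, and for each of 26650 genes its brightest such probe. All 7 groups were fitted in 1 limma 3.58.1 model (R 4.3.3; 2.32 prior and 13 residual degrees of freedom) with Benjamini-Hochberg adjustment over all genes; a gene was called at an adjusted p under 0.05 in 13 comparisons. The genes named are all members, the first measured gene of each list, any list gene past the threshold (there was none), and for each member the 3 genes of highest Pearson correlation. Alternatives changed the background correction, normalization, filter, probe rule, slide or replicate block and arrays used. Data of 26650 genes were simulated, and recovery was measured for YFP-positive against YFP-negative cells at day 3. It was 62% for genes raised by 4 on the log2 scale, 6% for those raised by 2 and 24% for those lowered by 2. Recovery against day 0 was not measured. Positions of probes are of mm9, from the files. The number of arrays limits the precision. The driver gene Foxl1 is not analysed here.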

Additional observations from a re-analysis of the deposited data

Results flagged for a closer look

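Of 15 probes tested in the 1 group of 4 arrays, YFP-positive cells at day 3, 3 had an array far from the other 3 (gap over range above 0.829), where chance gives about 1 in 20. Steap1 probe 2 read -4.83 on replicate 3 (gap over range 0.925), the other 3 arrays not being well above background. Steap4 probe 1 read -0.18 on replicate 1 (0.865), above the rest. Slc11a2 probe 2 read -3.42 on replicate 4 (0.857), the array that stood apart from its group.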

How the results depend on the processing

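Single members were called only against day 0, and those counts of 1 (Steap1 in YFP-positive cells at days 3, 7 and 14 and in YFP-negative cells at day 3) became 0 with normexp background correction, with the mean of all probes of a gene, with slide as a fixed block, with only the groups compared in the fit, and with the replicate block. In the replicate block the Steap1 differences were 4.91, 5.17, 5.60 and 5.06. The counts did not change without a filter on dim probes, with a stricter one, with every probe fitted on its own or with slide as a random block. Quantile normalization added 1 call, Steap1 in YFP-negative cells at day 14 (5.57, adjusted p = 0.0342). Leaving out 1 array gave counts of 0 to 1 for YFP-positive cells at days 3, 7 and 14, of 0 in every case for YFP-negative cells at day 3, and of 0 to 1 for YFP-negative cells at day 14, through Steap4 without day 0 replicate 2. Leaving out the 3 day 3 arrays whose markers or overall profile go against their group, a setting chosen after seeing the data, gave 0 for both day 3 groups and 1 for YFP-positive cells at days 7 and 14. In the other 8 comparisons no setting called a member. Over 66 differences from day 0 under settings other than leaving out 1 array, the sign changed in 0 for Steap1, Steap4 and Tfrc and in 20 for Steap3. Of all genes, 171 were called between the fractions over the mean of days, against 43 with normexp, 1125 with quantile normalization, 258 with every probe on its own, 2 with the fixed slide block, 41 with the replicate block, 68 with only the groups compared and 791 without those 3 arrays. No pairing by replicate number was assumed in the main fit. Deviations of same-numbered arrays from their group means correlated at -0.24 to 0.391 over 43 pairs, over 0.1 in 8. Those of differently numbered arrays correlated at -0.278 to 0.311 over 127 pairs, over 0.1 in 25. The highest value, 0.391, was that of YFP-negative and YFP-positive replicate 1 at day 7. Same-numbered arrays of the 2 fractions of a day had -0.054, -0.11 and -0.099 at day 3 (replicates 1, 3 and 4). At day 7 the values were 0.391, 0.031 and 0.005 (replicates 1, 3 and 4), and at day 14 0.072 and -0.239 (replicates 1 and 2). Of these, only replicate 1 at day 7 was over 0.1. Whether the fractions of a day came from the same mice was not tested. Against day 0 the calls over all genes were 14, 9 and 38 for YFP-positive cells at days 3, 7 and 14 and 12, 13 and 9 for YFP-negative cells, and over all settings they ran from 0 in each to 65, 40, 139, 30, 37 and 55. At day 14 between the fractions 6 calls became 0 to 53, and for day 14 against day 3 in YFP-positive cells 7 became 0 to 42.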
